A study of Homo sapiens with 24 samples.

Results

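A set of 10 chromatin genes that act in gene repression was read on Illumina expression beadchips in 4 Ewing sarcoma cell lines treated with a splicing inhibitor. They are EZH2, EED and SUZ12 of Polycomb repressive complex 2 (PRC2), BMI1 and RING1 of Polycomb repressive complex 1 (PRC1), the histone demethylase KDM1A (LSD1), the histone deacetylases HDAC1, HDAC2 and HDAC3, and the chromatin remodeller CHD4 of the NuRD complex. They were chosen by gene symbol, and 14 of the 47323 probes on the chip carried one of these 10 symbols, out of 20045 gene symbols in all. The treated groups were SKNMC, TC32, TC71 and RDES cells exposed to 5 nM pladienolide B (PlaB), an inhibitor of the SF3b complex of the spliceosome, for 24 h. Each had as its control the same line kept for 24 h with 0.1% (v/v) DMSO, per the sample labels, called vehicle here. The treatment protocol calls the controls untreated cells. Each of the 8 groups held 3 arrays, and each line comes from a single tumour. Whether the arrays of a group came from separate cultures is not stated in the labels. The p-values therefore cover only the spread among these samples, which may be technical.

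PRC2 places the repressive methyl mark of Polycomb on histone H3: EZH2 is its methyltransferase, and EED and SUZ12 are needed for its activity. PRC1 ubiquitinates histone H2A through a RING1 or RNF2 subunit paired with a PCGF protein such as BMI1. NuRD joins the remodeller CHD4 to the deacetylases HDAC1 and HDAC2, which also serve the CoREST complex of KDM1A and the SIN3 complex, while HDAC3 works in the NCoR and SMRT complexes. In Ewing sarcoma the fusion protein EWS-FLI1 is known to repress genes through NuRD and KDM1A, and EZH2 is known as one of the genes it induces.

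The promoters of EZH2, SUZ12 and BMI1 are shown because they belong to a PRC2 pair, of which SUZ12 fell in every line and EZH2 differed by probe, and to the PRC1 gene that was called higher in the mean of the lines. Each runs 5′ to 3′ on the gene's own strand, from 250 bases before to 50 bases after the start of transcription in RefSeq (assembly GRCh38.p14), where all 10 genes had an entry. Capitals mark the letters TTTCCCGC or TTTGGCGC, an E2F motif, and CCAAT, a box bound by NF-Y, each searched on both strands, so that CCAAT also appears as ATTGG.
EZH2, chr7:148884242-148884541, minus strand: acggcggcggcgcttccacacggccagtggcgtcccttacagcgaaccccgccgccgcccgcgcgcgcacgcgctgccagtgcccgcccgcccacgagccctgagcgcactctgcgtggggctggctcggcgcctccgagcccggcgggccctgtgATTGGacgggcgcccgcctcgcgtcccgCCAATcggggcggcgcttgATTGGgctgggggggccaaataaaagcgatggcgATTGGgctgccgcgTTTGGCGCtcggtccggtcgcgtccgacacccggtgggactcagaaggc
SUZ12, chr17:31936757-31937056, plus strand: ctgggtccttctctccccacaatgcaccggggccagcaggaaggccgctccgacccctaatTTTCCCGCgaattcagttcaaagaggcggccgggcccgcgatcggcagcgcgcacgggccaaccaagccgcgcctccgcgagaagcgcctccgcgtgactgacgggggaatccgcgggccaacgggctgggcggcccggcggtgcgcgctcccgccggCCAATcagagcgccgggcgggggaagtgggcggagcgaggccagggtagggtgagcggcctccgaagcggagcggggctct
BMI1, chr10:22320849-22321148, plus strand: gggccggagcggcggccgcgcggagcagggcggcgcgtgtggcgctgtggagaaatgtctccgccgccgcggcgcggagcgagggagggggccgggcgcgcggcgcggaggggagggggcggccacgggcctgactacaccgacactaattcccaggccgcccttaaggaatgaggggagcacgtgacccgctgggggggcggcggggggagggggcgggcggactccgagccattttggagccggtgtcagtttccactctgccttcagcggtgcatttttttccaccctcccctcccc

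The E2F letters stood in 2.31% of 27305 promoters of this length and, of the 10 genes, in EZH2 and SUZ12. The EZH2 promoter held 4 CCAAT matches and the SUZ12 promoter 1, against 35.7% of all promoters with at least 1 match. EED and HDAC1 also held 1 CCAAT match each. Neither motif was found in the windows of BMI1, RING1, KDM1A, HDAC2, HDAC3 and CHD4. No window of the 10 genes held the ETS letters CCGGAAGT (4.44% of all promoters) or the repeat GGAAGGAA (3.58%).

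Across the series, arrays detected 13821 to 18736 probes (detection p under 0.05), and the mean was 15500.2 on PlaB arrays and 17163.8 on vehicle arrays. Arrays of one group correlated at 0.987 to 0.9938 across probes. Of 6 Ewing sarcoma markers, CD99, NKX2-2, PRKCB, STEAP1 and CCND1 were detected on all 24 arrays and LIPI on 9. The 5 other than CD99 fell in the mean of the lines, and the summed intensity of the 6 was 2741 to 4371 on PlaB arrays and 4673 to 5516 on vehicle arrays. No marker of blood, epithelial, endothelial or fibroblast cells was detected on all 24 arrays, and CDH5 and VWF were detected on none. Several were detected on most arrays: COL3A1 on 23, CD14 on 22, CD79A on 21, COL1A1 and KRT18 on 20 and PDGFRB on 19. DCN, on 17 arrays, reached a log2 value of 8.57. The endothelial marker ESAM was detected on 10 PlaB arrays and 1 vehicle array. The 5 fibroblast markers fell in the mean of the lines, with summed intensities of 125 to 432 on PlaB arrays and 195 to 754 on vehicle arrays. Of the epithelial markers 1 rose (KRT18), with sums of 94.7 to 189 with PlaB and 98.0 to 141 with vehicle. Of the blood markers 2 rose and 1 fell, with sums of 111 to 288 with PlaB and 106 to 194 with vehicle. From the endothelial list 1 marker rose, with sums of 92.8 to 132 with PlaB and 89.6 to 102 with vehicle. For each of these other cell types the sums of PlaB and vehicle arrays overlapped. Whether these shifts have a part in the results below was not tested.

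Most of the 9 measured genes were lower after PlaB. SUZ12, HDAC1, HDAC2 and HDAC3 fell in all 4 lines, RING1 and KDM1A in 3 and CHD4, by its brighter probe, in 2, while BMI1 rose in SKNMC and in the mean of the lines. Of the 3 EZH2 probes, 1 fell in SKNMC, TC71 and RDES. The other 2 rose in SKNMC, calls lost with arrays centred on their median, and the brighter of them fell in RDES. Values are log2 intensities after background correction and quantile normalization, so a difference is relative to the rest of the array, and its precision is limited by the 3 arrays of a group. In bulk RNA, fewer cells of a type and less RNA per cell cannot be told apart.

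In all, 12 probes of 9 genes passed the detection filter, and each of these was detected on all 24 arrays. EED had 1 probe (ILMN_2347917), detected on 3 arrays, and a further HDAC2 probe (ILMN_3251283) was detected on 6. These 2 probes were not tested.

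In SKNMC, limma called 9 of the 12 probes lower and 3 higher at an adjusted p under 0.05, where 28.0% of all 17557 tested probes were called lower and 24.9% higher. In TC32, 5 were called lower and 0 higher, against 21.6% and 19.3% of all probes. In TC71, 8 were called lower and 0 higher, against 22.2% and 21.4%. In RDES, 9 were called lower and 0 higher, against 20.2% and 19.5%. At an unadjusted p under 0.05, limma gave 0 higher in TC32, 0 in TC71 and 1 in RDES, which was BMI1. For the mean of the 4 lines, 9 were called lower and 1 higher, against 34.7% and 30.9% of all probes.

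The median log2 change of the 12 probes was -0.52 in SKNMC, -0.21 in TC32, -0.42 in TC71, -0.43 in RDES and -0.43 in the mean of the lines, beside -0.018 over all tested probes in the mean. Of all probes called for the mean of the lines, 47.1% were higher. That share was 25.9% when each array was centred on its median, which moved the median of all probes to -0.14, and 65.1% when the median of probes detected on all arrays was used for centring, which moved it to 0.14. Calls of a gene within a line or in the mean that these 2 centrings change are given with that gene.

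**Figure D1:**
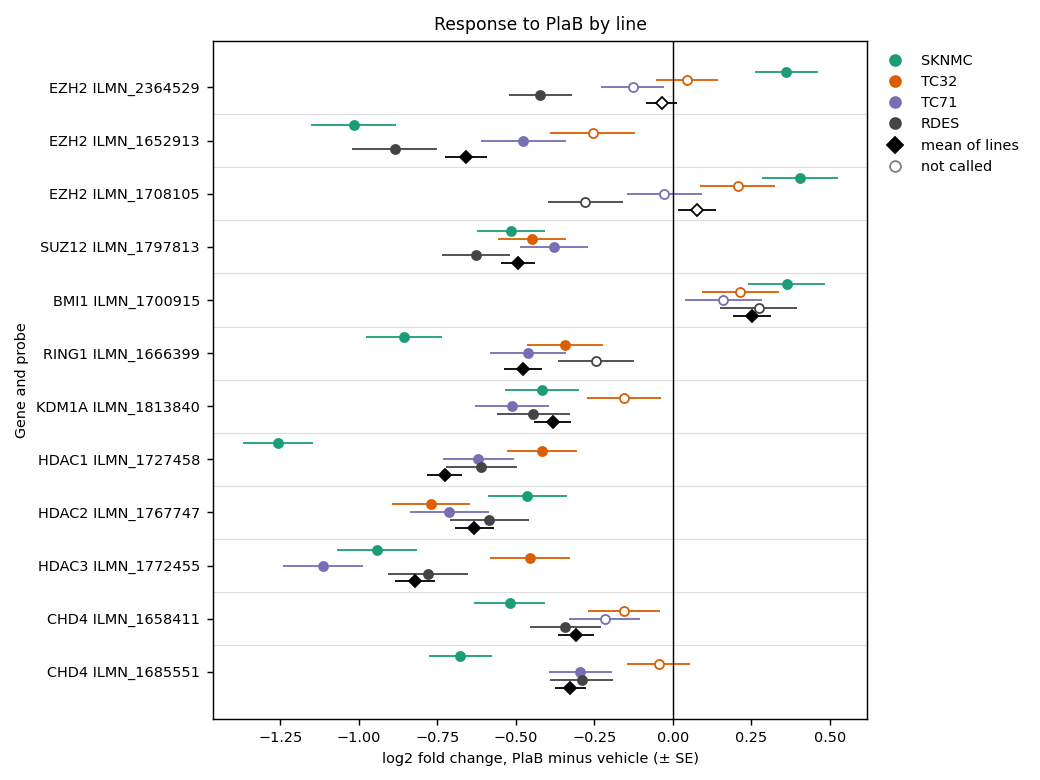
Log2 fold change of the 12 tested probes (x axis, PlaB minus vehicle, bars are the standard error of the fit) in each line and in the mean of the lines; open symbols missed the threshold of 0.05. All 4 lines lie below 0 for 9 of the 12 probes, and HDAC1 has the widest spread between lines, followed by the 3 EZH2 probes; the values of EZH2 probes ILMN_2364529 and ILMN_1708105 and of BMI1 moved below 0 in TC32 with arrays centred on their median.

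EZH2 was measured by 3 probes. ILMN_2364529, the brightest, and ILMN_1708105 are annotated to the transcript NM_152998, and ILMN_1652913 to NM_004456. Where on the transcripts the probes lie is not analysed here. In SKNMC, ILMN_2364529 read 8.03, 8.01 and 8.07 with PlaB, against 7.80, 7.57 and 7.65 with vehicle. ILMN_1708105 read 7.59, 7.64 and 7.32 with PlaB there, against 7.01, 7.17 and 7.15 with vehicle. ILMN_1652913 read 6.96, 6.72 and 6.69 with PlaB, against 7.91, 7.61 and 7.90 with vehicle. In these cells every PlaB array was above every vehicle array for the first pair of probes and below every vehicle array for ILMN_1652913.

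The log2 changes in SKNMC were 0.36 ± 0.10 (SE of the fit; limma adjusted p = 0.00292) for ILMN_2364529 and 0.40 ± 0.12 (0.00506) for ILMN_1708105. For ILMN_1652913 the change was -1.02 ± 0.14, which is 50.5% lower (limma adjusted p = 1.74e-07). Of 2507 genes with several tested probes, 4.67% had probes called in opposite directions in SKNMC. With arrays centred on their median the rises were no longer called, at 0.11 and 0.080, while ILMN_1652913 was called lower under all 7 scalings.

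In RDES all 3 EZH2 probes were below vehicle without overlap, as they were not in SKNMC. ILMN_2364529 read 7.84, 7.72 and 7.76 with PlaB, against 8.14, 8.33 and 8.12 with vehicle, a fall of 25.4% (log2 change -0.42, limma adjusted p = 0.00101). ILMN_1652913 read 6.75, 7.002 and 7.14 with PlaB, against 8.09, 7.53 and 7.93 with vehicle, a fall of 45.9% (-0.89, limma adjusted p = 3.57e-06). ILMN_1708105 missed the threshold in RDES at -0.28 (limma adjusted p = 0.0642), with an interval from -0.52 to -0.03. It passed with no background correction (-0.21, adjusted p = 0.0271), an offset of 50 (-0.23, 0.0329), median centring (-0.39, 0.022) and cyclic loess (-0.30, 0.0421), that is under 4 of 7 scalings. It also passed with the stricter detection filter (-0.28, limma adjusted p = 0.0433), without RDES PlaB replicate 2 (-0.36, 0.0361) and without TC32 vehicle replicate 3, which enters only the shared spread (-0.28, adjusted p = 0.0417).

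In TC71, the line with the lowest EZH2 level, ILMN_1652913 read 5.57, 5.64 and 5.67 with PlaB, against 6.15, 6.04 and 6.12 with vehicle, a fall of 28.1% (-0.48, limma adjusted p = 0.00466). The other probes were not called there, at -0.13 for ILMN_2364529 and -0.027 for ILMN_1708105. ILMN_2364529 was called lower in TC71 with median centring (-0.38, limma adjusted p = 0.0138) and with cyclic loess (-0.26, 0.0354). In TC32 no EZH2 probe was called: the changes were 0.045 for ILMN_2364529, 0.21 for ILMN_1708105 and -0.26 for ILMN_1652913, and PlaB and vehicle arrays overlapped for each. With arrays centred on their median, ILMN_2364529 turned to -0.33 in TC32 (limma adjusted p = 0.0342), ILMN_1708105 turned to -0.20 without a call, and ILMN_1652913 was called lower at -0.64 (adjusted p = 0.0037). Without TC32 vehicle replicate 3, ILMN_1708105 was called higher there (0.35, limma adjusted p = 0.0246).

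Over the 4 lines ILMN_1652913 fell by 0.66 on the log2 scale (SE 0.07, limma adjusted p = 5.53e-10), which is 36.6% lower with PlaB. ILMN_2364529 averaged -0.036 (limma adjusted p = 0.539, interval -0.14 to 0.066) and ILMN_1708105 averaged 0.076 (0.267, interval -0.046 to 0.20), means over lines of opposite sign. Both means were called lower with arrays centred on their median, at -0.28 and -0.19 (limma adjusted p = 0.000251 and 0.0124), and the mean of all 3 probes was called lower at -0.21 (0.000121). Without SKNMC, ILMN_2364529 was called lower at -0.17 (limma adjusted p = 0.0132) and ILMN_1708105 stood at -0.033.

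The 3 probes could be compared on the same array, where a shift of the whole array cancels. The log2 value of ILMN_1652913 minus that of ILMN_2364529 averaged -0.79 with PlaB and -0.17 with vehicle. The difference of -0.62 had p = 0.000288 in an exact two-sided permutation test over 160000 regroupings of the arrays within lines (0.000576 after Benjamini-Hochberg adjustment over 4 probe pairs). Set against ILMN_1708105 it averaged -0.20 with PlaB and 0.53 with vehicle, a difference of -0.73 (exact permutation p = 2.5e-05, adjusted 1e-04). The gap between ILMN_1652913 and either probe was more negative with PlaB in all 4 lines, from -0.30 to -1.38 against ILMN_2364529 and from -0.45 to -1.42 against ILMN_1708105.

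The probes that share an annotated transcript, ILMN_2364529 and ILMN_1708105, differed by 0.59 with PlaB and 0.70 with vehicle. That change of -0.11 missed the threshold (exact permutation p = 0.0878). Within a single line, 20 regroupings exist and the test cannot go below 0.1. These comparisons were chosen after the values of the probes had been seen.

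**Figure D2:**
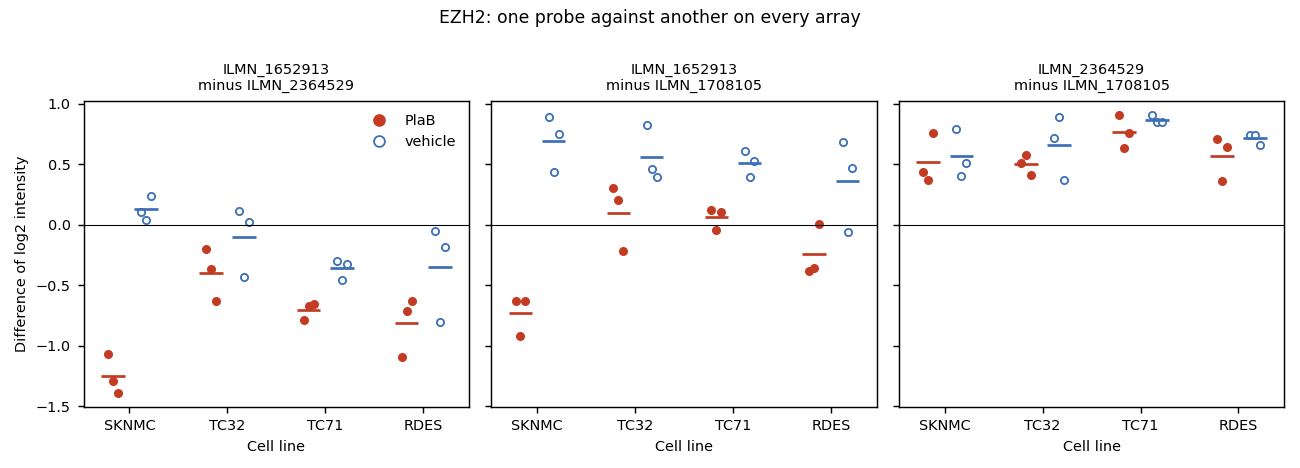
Difference of log2 intensity between EZH2 probes (y axis) on each of the 24 arrays by line, PlaB as filled and vehicle as open points, bars at the mean of 3 arrays. ILMN_1652913 sits lower with PlaB against both other probes in every line, farthest in SKNMC, while the third panel shows overlapping arrays in each line.

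SUZ12, the PRC2 subunit that holds the core together, fell in every line. Its probe read 8.91, 8.91 and 8.71 with PlaB in SKNMC, against 9.50, 9.35 and 9.22 with vehicle. In TC32 it read 8.30, 8.49 and 8.26 with PlaB, against 8.90, 8.77 and 8.73 with vehicle. Every PlaB array was below every vehicle array in both. In TC71 the readings were 7.86, 7.71 and 7.84 with PlaB, against 8.06, 8.30 and 8.19 with vehicle. In RDES they were 7.88, 7.67 and 7.86 with PlaB, against 8.54, 8.43 and 8.32 with vehicle. Again no arrays overlapped, and the RDES gap was the widest of the 4.

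The SUZ12 changes were -0.51 in SKNMC, -0.45 in TC32, -0.38 in TC71 and -0.63 in RDES (limma adjusted p = 0.000174, 0.00114, 0.00503 and 2.19e-05). The mean over the lines was -0.49 ± 0.05 (SE), or 28.9% lower with PlaB (limma adjusted p = 2.36e-09). A difference of response between lines was not called for SUZ12 (F-test adjusted p = 0.517). With centring on the probes that all arrays detected, the SKNMC change was -0.26 and missed the threshold (limma adjusted p = 0.055).

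EED, which binds the Polycomb mark, could not be followed: its probe lay between 4.16 and 4.34 on PlaB arrays and between 4.17 and 4.51 on vehicle arrays, and no group had it detected on all 3 arrays.

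BMI1, the PCGF subunit of canonical PRC1, was the gene of the set that rose in the mean of the lines. In SKNMC it read 7.27, 7.06 and 7.28 with PlaB, against 6.81, 6.96 and 6.75 with vehicle, a rise of 28.6% (log2 change 0.36, limma adjusted p = 0.0134). In RDES it read 6.95, 6.83 and 6.76 with PlaB, against 6.54, 6.56 and 6.63 with vehicle. The arrays did not overlap in RDES either, and the change of 0.27 missed the threshold (limma adjusted p = 0.0767; 0.0497 with the line fitted alone). In TC32 and TC71 the arrays overlapped, and the changes of 0.21 and 0.16 were not called (adjusted p = 0.173 and 0.316).

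Over the 4 lines BMI1 was 19.1% higher with PlaB (log2 change 0.25 ± 0.06 SE, limma adjusted p = 0.000615). This rise depended on the scaling: with arrays centred on their median the mean was -0.019 and the SKNMC change 0.0066, and neither was called. The SKNMC call was also lost without SKNMC vehicle replicate 3 (0.32, adjusted p = 0.0566), without SKNMC PlaB replicate 1 (0.33, 0.0505) and without SKNMC PlaB replicate 3 (0.32, 0.0522), all in the limma fit. Without TC32 vehicle replicate 3, the TC32 change was called at 0.36 (adjusted p = 0.0262).

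RING1, the catalytic partner of BMI1, moved the other way. In SKNMC its probe read 8.37, 8.26 and 8.42 with PlaB, against 9.03, 9.21 and 9.38 with vehicle, which is 44.8% lower (log2 change -0.86, limma adjusted p = 4.39e-07). In TC71 it read 8.53, 8.57 and 8.64 with PlaB, against 8.98, 8.95 and 9.19 with vehicle (-0.46, adjusted p = 0.00223 in limma). In TC32 it read 8.38, 8.15 and 8.50 with PlaB, against 8.73, 8.69 and 8.64 with vehicle (-0.34, limma adjusted p = 0.0216). PlaB arrays were below vehicle arrays without overlap in all 4 lines, RDES included.

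The RDES readings of RING1 were 8.43, 7.94 and 8.37 with PlaB, against 8.48, 8.54 and 8.46 with vehicle, and the change of -0.25 was not called (limma adjusted p = 0.108). It was called without RDES PlaB replicate 1 (-0.33, adjusted p = 0.0475) and with cyclic loess (-0.30, 0.0408). The TC32 call was lost without TC32 PlaB replicate 2 (-0.25, adjusted p = 0.147), without TC32 vehicle replicate 1 (-0.32, 0.0672) and without TC32 vehicle replicate 2 (-0.34, 0.0508). The mean over the lines was -0.48 ± 0.06 (SE), 28.1% lower with PlaB (limma adjusted p = 3.51e-08).

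KDM1A, the LSD1 demethylase, fell in SKNMC, TC71 and RDES. It read 8.53, 8.35 and 8.55 with PlaB in SKNMC, against 8.95, 8.77 and 8.95 with vehicle. In TC71 it read 7.58, 7.12 and 7.29 with PlaB, against 7.83, 7.90 and 7.79 with vehicle. In RDES it read 8.89, 8.73 and 8.58 with PlaB, against 9.25, 9.22 and 9.06 with vehicle. The arrays of these 3 lines did not overlap, and the falls were 25.1%, 29.9% and 26.5% (limma adjusted p = 0.00335, 0.000628 and 0.00283). In TC32 the arrays overlapped and the change of -0.16 was not called (limma adjusted p = 0.319, interval -0.39 to 0.08).

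The mean KDM1A change was -0.38 ± 0.06 (SE), or 23.3% lower with PlaB (limma adjusted p = 1.2e-06). With centring on the probes that all arrays detected, the SKNMC change was -0.21 and was not called (limma adjusted p = 0.148). With centring on the median, the TC32 change was -0.51 and was called (0.00639).

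HDAC1 showed the largest fall of the set in any one line. Its probe read 8.76, 8.64 and 9.08 with PlaB in SKNMC, against 10.07, 10.19 and 9.99 with vehicle, which is 58.2% lower (log2 change -1.26 ± 0.11 SE, limma adjusted p = 6.82e-11). In TC32 it read 9.49, 9.62 and 9.52 with PlaB, against 9.95, 9.82 and 10.12 with vehicle, which is 25.1% lower (limma adjusted p = 0.00313). The PlaB arrays were below the vehicle arrays in both, by most in SKNMC. In TC71 the readings were 9.18, 9.14 and 9.27 with PlaB, against 9.80, 9.79 and 9.85 with vehicle, a fall of 34.9%. In RDES they were 9.49, 9.40 and 9.46 with PlaB, against 10.03, 9.93 and 10.22 with vehicle, a fall of 34.5%. The log2 changes were -0.62 and -0.61, and no arrays overlapped (limma adjusted p = 3.47e-05 and 5.13e-05).

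HDAC1 levels with vehicle were not called different between lines by the F-test (limma adjusted p = 0.112). By pair, SKNMC exceeded TC71 by 0.27 (limma adjusted p = 0.045). The fall in SKNMC was larger than that in TC32 by 0.84, in TC71 by 0.64 and in RDES by 0.65 on the log2 scale (limma adjusted p = 0.000182, 0.00359 and 0.00305). The mean over the lines was -0.73 ± 0.06 (SE), 39.5% lower with PlaB (limma adjusted p = 9.97e-13).

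HDAC2, the other NuRD deacetylase, fell most in TC32. There its probe ILMN_1767747 read 7.11, 6.66 and 7.10 with PlaB, against 7.86, 7.67 and 7.65 with vehicle, which is 41.3% lower (limma adjusted p = 8.84e-06). In TC71 it read 6.77, 6.41 and 6.72 with PlaB, against 7.41, 7.38 and 7.24 with vehicle, which is 38.9% lower (limma adjusted p = 2.43e-05). PlaB arrays were lower without overlap in all 4 lines. In RDES the readings were 6.88, 6.98 and 7.02 with PlaB, against 7.76, 7.34 and 7.53 with vehicle, and in SKNMC 7.50, 7.45 and 7.28 with PlaB, against 7.89, 7.90 and 7.83 with vehicle.

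The HDAC2 changes in RDES and SKNMC were -0.58 and -0.46 (limma adjusted p = 0.000346 and 0.00238). The mean was -0.63 ± 0.06 (SE), 35.5% lower with PlaB (limma adjusted p = 2.66e-10). A difference of response between lines was not called for HDAC2 (F-test adjusted p = 0.427). The second HDAC2 probe lay between 4.18 and 4.63 on PlaB arrays and between 4.17 and 4.47 on vehicle arrays, and no group had it detected on all 3 arrays.

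CHD4, the NuRD remodeller, fell in SKNMC and RDES by both of its probes. ILMN_1658411 read 8.14, 8.05 and 8.10 with PlaB in SKNMC, against 8.64, 8.40 and 8.81 with vehicle (30.2% lower, limma adjusted p = 0.000276). ILMN_1685551 read 7.07, 6.86 and 7.03 with PlaB there, against 7.58, 7.70 and 7.71 with vehicle (37.4% lower, limma adjusted p = 1.03e-06). In RDES ILMN_1658411 was 21.1% lower with PlaB and ILMN_1685551 18.2% lower (limma adjusted p = 0.0165 and 0.0204). No arrays of the 2 treatments overlapped for either probe in these lines.

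The RDES calls of CHD4 were lost when some single arrays were left out, while ILMN_1658411 was called there under all 7 scalings. ILMN_1658411 lost its call there without RDES PlaB replicate 3 (-0.26, limma adjusted p = 0.106), RDES PlaB replicate 2 (-0.28, 0.0849) or RDES vehicle replicate 2 (-0.30, 0.0699). ILMN_1685551 lost it without RDES PlaB replicate 3 (-0.20, 0.15) or RDES vehicle replicate 1 (-0.27, 0.0672). That call was also lost with centring on the probes that all arrays detected (-0.27, limma adjusted p = 0.059) and with the line fitted alone (-0.29, 0.0519).

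In TC71 ILMN_1685551 was called at -0.29 (limma adjusted p = 0.0169) and ILMN_1658411 was not, at -0.22 (0.127). ILMN_1658411 passed there with median centring (-0.41, limma adjusted p = 0.0118), with cyclic loess (-0.32, 0.0201) and as the mean of both probes (-0.26, 0.0218). The call of ILMN_1685551 was lost without TC71 PlaB replicate 2 (-0.25, adjusted p = 0.0813) or TC71 vehicle replicate 3 (-0.27, 0.056). In TC32 neither CHD4 probe was called, at -0.16 for ILMN_1658411 and -0.045 for ILMN_1685551. With arrays centred on their median both were called lower there, at -0.49 and -0.42 (limma adjusted p = 0.00238 and 0.00489). Over the 4 lines the probes gave -0.31 and -0.33, 19.3% and 20.2% lower with PlaB (limma adjusted p = 2.03e-05 and 1.12e-06). Their responses differed by 0.018, which the exact permutation test did not separate from 0 (p = 0.766).

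HDAC3, the deacetylase of the NCoR and SMRT complexes, had the largest mean fall of the set, -0.82 ± 0.06 (SE), or 43.4% lower with PlaB (limma adjusted p = 1.05e-12). In TC71 its probe read 7.16, 6.998 and 7.06 with PlaB, against 8.16, 8.26 and 8.14 with vehicle, which is 53.8% lower (limma adjusted p = 1.99e-08). In SKNMC it read 6.85, 6.65 and 6.81 with PlaB, against 7.86, 7.72 and 7.56 with vehicle, which is 47.9% lower (limma adjusted p = 2.26e-07). In RDES it read 6.62, 6.75 and 7.06 with PlaB, against 7.51, 7.64 and 7.62 with vehicle, which is 41.8% lower (limma adjusted p = 9.67e-06). PlaB arrays were lower without overlap in these lines and in TC32.

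In TC32 HDAC3 read 7.30, 6.77 and 7.29 with PlaB, against 7.66, 7.46 and 7.60 with vehicle, a change of -0.45 (limma adjusted p = 0.00452). One array carried much of it: without TC32 PlaB replicate 2 the change was -0.28 and was not called (adjusted p = 0.0827).

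**Figure D3:**
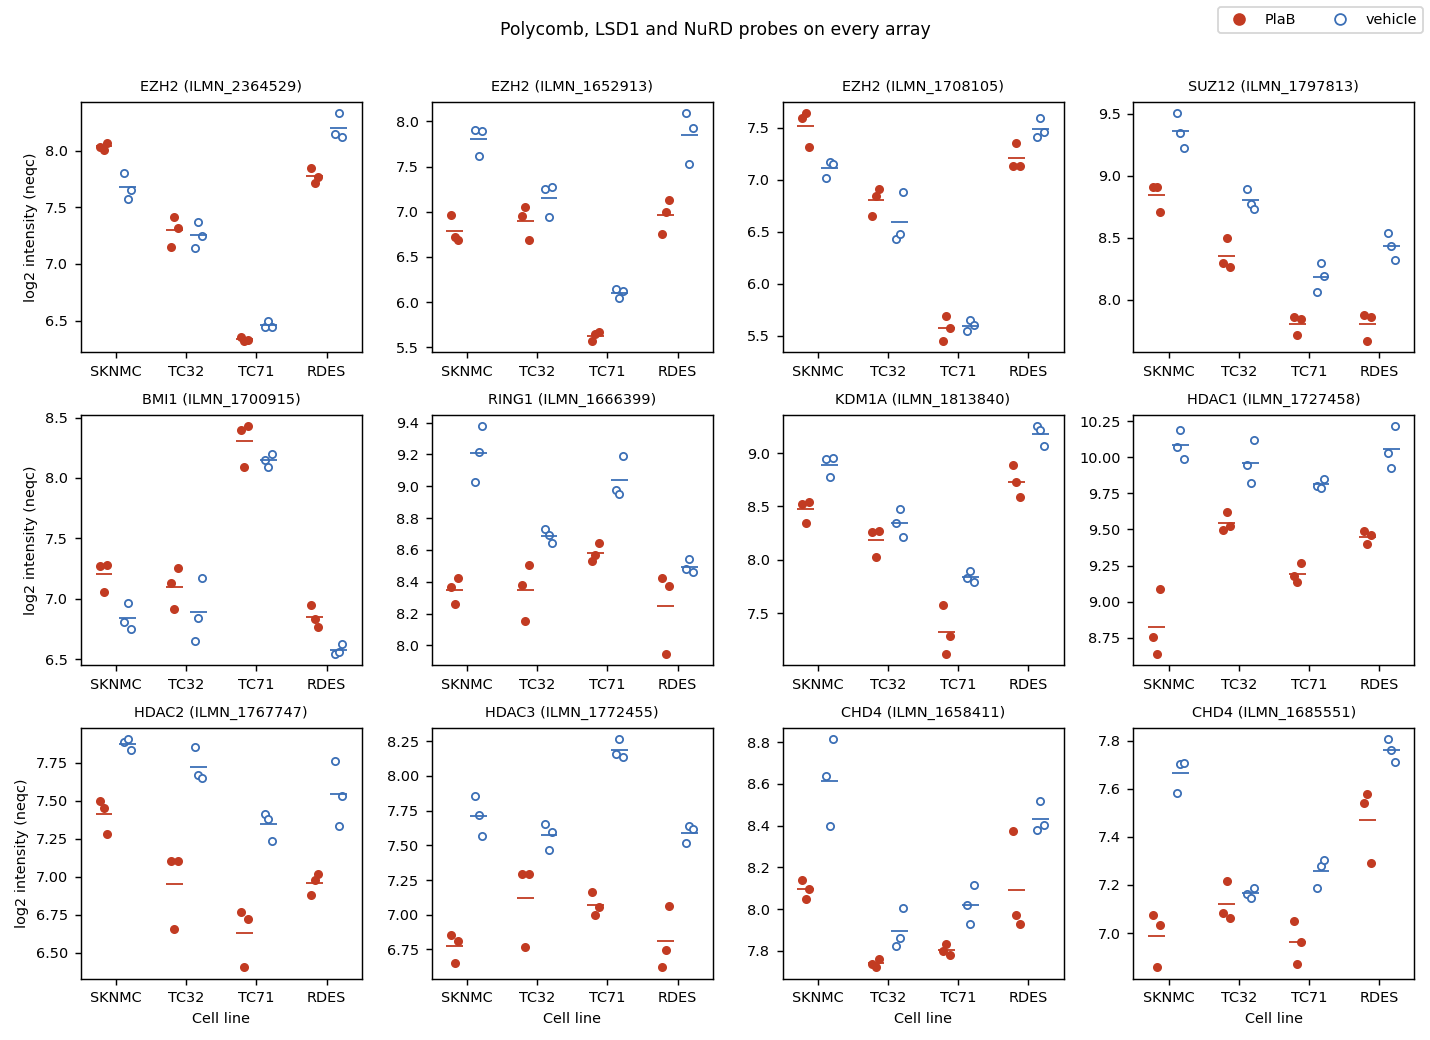
Log2 intensity of each tested probe (y axis, scale differs by panel) on all 24 arrays by line, PlaB as filled and vehicle as open points, bars at the mean of 3 arrays. SUZ12, RING1, HDAC1, HDAC2, HDAC3 and CHD4 probe ILMN_1658411 lie lower with PlaB without overlap in all 4 lines, and BMI1 lies higher on average in each line as scaled here, but not in TC32 and TC71 with arrays centred on their median.

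Across the set, 4 of the 12 probes (SUZ12, HDAC1, HDAC2 and HDAC3) were called lower in all 4 lines, beside 8.52% of all tested probes. PlaB arrays lay below vehicle arrays without overlap in all 4 lines for 6 of the 12, beside 9.45% of all tested probes. The log2 change was below 0 in all 4 lines for 9 of the 12, beside 26.5%. These shares are a description, since the genes were chosen with earlier results of these data known. The 12 probes stand for 9 genes and were detected on all 24 arrays, which was not required of all tested probes.

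The size of the response differed between lines for 7 of the 12 probes by limma's F-test at an adjusted p under 0.05, beside 42.4% of all tested probes. They were the 3 EZH2 probes, HDAC1, RING1, HDAC3 and CHD4 probe ILMN_1685551. With arrays centred on their median 3 of the 12 were called, beside 36.4% of all tested probes: EZH2 probe ILMN_2364529, HDAC1 and CHD4 probe ILMN_1685551 (F-test adjusted p = 0.0254, 0.00966 and 0.00979). RING1 (0.109), HDAC3 (0.156) and EZH2 probes ILMN_1652913 (0.0615) and ILMN_1708105 (0.186) then missed the threshold. RING1 also missed it with centring on the probes that all arrays detected (0.261) and with cyclic loess (0.11). By pair of lines, limma called 5 of the 12 different between SKNMC and TC32 (27.3% of all tested probes), 4 between SKNMC and TC71 (23.6%) and 5 between SKNMC and RDES (23.7%). It called 1 between TC32 and TC71 (16.5%), 2 between TC32 and RDES (11.3%) and 0 between TC71 and RDES (10.6%), where 2 had an unadjusted p under 0.05. SKNMC took part in most of the calls, and the 3 pairs with SKNMC also had the highest shares over all tested probes.

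For EZH2 probe ILMN_2364529 the SKNMC change exceeded that of RDES by 0.78 and that of TC71 by 0.49 (limma adjusted p = 0.000136 and 0.0116). For ILMN_1652913 the SKNMC change was lower than that of TC32 by 0.76 (a difference of -0.76, adjusted p = 0.00339). For ILMN_1708105 the SKNMC change exceeded that of RDES by 0.68 (limma adjusted p = 0.00343). SKNMC thus lay at the upper end for ILMN_2364529 and ILMN_1708105. For ILMN_1652913 it lay at the lower end, where it was not separated from RDES (difference -0.13, limma adjusted p = 0.687).

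RING1 fell further in SKNMC than in RDES (difference -0.61, limma adjusted p = 0.00853) and TC32 (-0.51, 0.0239). HDAC3 fell less in TC32 than in TC71 (difference 0.66, adjusted p = 0.0108) and in SKNMC (SKNMC minus TC32 -0.49, 0.0419). CHD4 probe ILMN_1685551 fell further in SKNMC than in TC32 (difference -0.63, limma adjusted p = 0.00117), RDES (-0.39, 0.0449) and TC71 (-0.38, 0.0476). For SUZ12, BMI1, KDM1A, HDAC2 and the brighter CHD4 probe a difference between lines was not called (adjusted p = 0.216 to 0.742 in limma).

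With vehicle alone, 11 of the 12 probes differed in level between lines by limma's F-test, beside 73.4% of all tested probes, and HDAC1 did not. Tested by pair, HDAC1 was still called between SKNMC and TC71 (difference 0.27, limma adjusted p = 0.045). By pair, limma called 8 of the 12 between SKNMC and TC32 (45.2% of all tested probes), 11 between SKNMC and TC71 (49.5%) and 6 between SKNMC and RDES (44.8%). It called 9 between TC32 and TC71 (45.8%), 8 between TC32 and RDES (42.5%) and 9 between TC71 and RDES (46.8%). Levels of different probes cannot be set against each other, so each order is within 1 probe.

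EZH2 was highest in RDES, then SKNMC, TC32 and TC71 by all 3 probes. For ILMN_2364529 the means were 8.20 ± 0.12, 7.68 ± 0.12, 7.25 ± 0.11 and 6.46 ± 0.03 (SD, n = 3 each), and every neighbouring pair differed (limma adjusted p = 7.28e-05, 0.000761 and 9.16e-08). RDES and SKNMC were not separated by ILMN_1652913 (difference 0.044, adjusted p = 0.83).

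KDM1A followed the same order of lines, at 9.18 ± 0.10 in RDES, 8.89 ± 0.10 in SKNMC, 8.34 ± 0.13 in TC32 and 7.84 ± 0.05 in TC71 (SD, n = 3 each), and each neighbouring pair differed (limma adjusted p = 0.0481, 0.000263 and 0.000708). BMI1 ran otherwise: TC71 stood highest at 8.14 ± 0.06, above TC32 at 6.89 ± 0.26 (SD, n = 3 each) by 1.26 (limma adjusted p = 5.12e-10). TC32, SKNMC and RDES followed without a called difference between neighbours (0.045 and 0.27 apart), while TC32 exceeded RDES by 0.31 (limma adjusted p = 0.0411). TC71 thus had the lowest EZH2 and KDM1A levels and the highest BMI1 level of the 4 lines.

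SUZ12 was highest in SKNMC, at 9.36 ± 0.14, then TC32 at 8.80 ± 0.09, RDES at 8.43 ± 0.11 and TC71 at 8.18 ± 0.12 (SD, n = 3 each), and the last pair was not separated (limma adjusted p = 0.0619). RING1 was higher in SKNMC and TC71, at 9.21 and 9.04, than in TC32 and RDES, at 8.69 and 8.49; TC71 exceeded TC32 by 0.35 (limma adjusted p = 0.0168), and the other neighbours were not separated. HDAC3 stood highest in TC71, by 0.47 over SKNMC (adjusted p = 0.00251), and the other lines were within 0.14 of each other without a call. HDAC2 means were ordered SKNMC, TC32, RDES and TC71 with gaps of 0.15, 0.18 and 0.20, and no neighbouring pair was separated. Farther apart, SKNMC exceeded TC71 by 0.53 and RDES by 0.33, and TC32 exceeded TC71 by 0.38 (limma adjusted p = 0.000716, 0.0313 and 0.0133).

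CHD4 was higher in SKNMC and RDES than in TC71 and TC32 by both probes, with the gap between RDES and TC71 at 0.41 for ILMN_1658411 (limma adjusted p = 0.00341) and the gap between SKNMC and TC71 at 0.41 for ILMN_1685551 (0.000981). Within each pair of lines no difference was called.

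The other subunits of these complexes moved in both directions. The lists used here held 101 genes, of which 91 had a probe and 77 were measured, the 9 genes above included. For the mean of the lines limma called 27 of the 77 higher and 32 lower, where 32.3% of all 10882 measured genes were higher and 37.9% lower. Centring arrays on their median gave 16 higher and 42 lower, and which of the genes outside the 9 change their call was not checked. Of the 68 that are not among the 9, 26 were higher and 25 lower, and their median change was -0.015 beside -0.030 over all genes. A gene is read from its brightest probe, and values below are log2 changes in the mean of the lines.

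Of 10 measured PRC2 genes, 3 rose and 5 fell, with a median of -0.13. RBBP7, a histone-binding subunit shared with NuRD and SIN3, fell by 0.68 on the log2 scale (limma adjusted p = 2.12e-08) but stood at 0.037 in SKNMC. With PlaB it averaged 4.50 in TC71 and 4.60 in RDES, close to the EED probe, which failed the detection filter. RBBP4, a close relative of RBBP7, rose at 0.44 (6.47e-08), though a second RBBP4 probe was not called (0.096). The accessory subunit PHF1 rose at 0.53, and its second probe at 0.36. The second probes of RBBP4 and PHF1 averaged 4.68 and 4.56 with vehicle, also not far above the EED probe. The paralog of EZH2, EZH1, was detected on 3 arrays and was not tested.

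Of 20 measured PRC1 genes, 11 rose and 6 fell, with a median of 0.21. L3MBTL2, PCGF1 and RYBP, subunits of non-canonical PRC1, rose at 0.69, 0.65 and 0.62 (limma adjusted p = 6.15e-12, 4.41e-09 and 4.17e-11). The rise was called in all 4 lines for L3MBTL2 and RYBP and in 3 for PCGF1, which missed in RDES. SCMH1, a Polycomb-associated protein, fell at -0.86 (5.36e-13). Another SCMH1 probe fell at -0.54, and a further probe was not called (-0.039). Over the lines they averaged 4.35 and 4.63 with PlaB, close to the EED probe, which failed the detection filter.

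Of 10 measured genes of the KDM1A and CoREST complex, 1 rose and 6 fell, with a median of -0.49. HDAC1, HDAC2 and KDM1A are 3 of those that fell. Of the 7 others 1 rose and 3 fell, with a median of -0.12, beside -0.030 over all genes. The scaffold RCOR2 fell at -0.97 and was called lower in every line (limma adjusted p = 1.53e-13). In TC71 it averaged 4.31 with PlaB, close to the EED probe, which failed the detection filter. ZMYM3 fell at -0.68 and GSE1 at -0.59. The second ZMYM3 probe fell at -0.14 and lay between 4.11 and 4.36 on PlaB arrays, also close to the EED probe. PHF21A, the subunit that reads unmethylated histone H3, rose at 0.54 and was called higher in every line (1.2e-09). The paralog KDM1B was detected on 0 arrays.

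Of 13 measured NuRD genes, 3 rose and 6 fell, with a median of -0.098. Of the 10 other than HDAC1, HDAC2 and CHD4, 3 rose and 3 fell, with a median of -0.045. GATAD2A rose at 0.63 (limma adjusted p = 3.08e-10) and was called in 3 lines, TC71 being the exception. MTA1 fell at -0.58 and was called lower in every line (2.14e-11). Of 14 measured SIN3 genes, 7 rose and 6 fell, with a median of 0.17. SAP18 rose at 1.56 (limma adjusted p = 9.28e-21) and SIN3B, a scaffold of the complex, at 1.09 (2.59e-15), both in every line. SAP30L rose at 0.60 by its brighter probe and fell at -0.31 by the other, which averaged 4.52 with PlaB, close to the EED probe.

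Of 4 measured NCoR and SMRT genes, limma called 0 higher, also at an unadjusted p under 0.05, and 3 lower, with a median of -0.45. Without HDAC3, 2 of the 3 others were lower, with a median of -0.27. GPS2 fell at -0.63 with HDAC3 and was called lower in every line (limma adjusted p = 8.01e-11). Of 5 other deacetylase genes, 1 rose and 2 fell, and HDAC6, a cytoplasmic deacetylase, fell at -0.58 (6.84e-09). Among 4 genes of enzymes that remove Polycomb marks or help to, 2 rose and 1 fell: ASXL2 rose at 0.64 and ASXL1 fell at -0.67, each called in every line (limma adjusted p = 4.84e-10 and 6.7e-11).

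**Figure D4:**
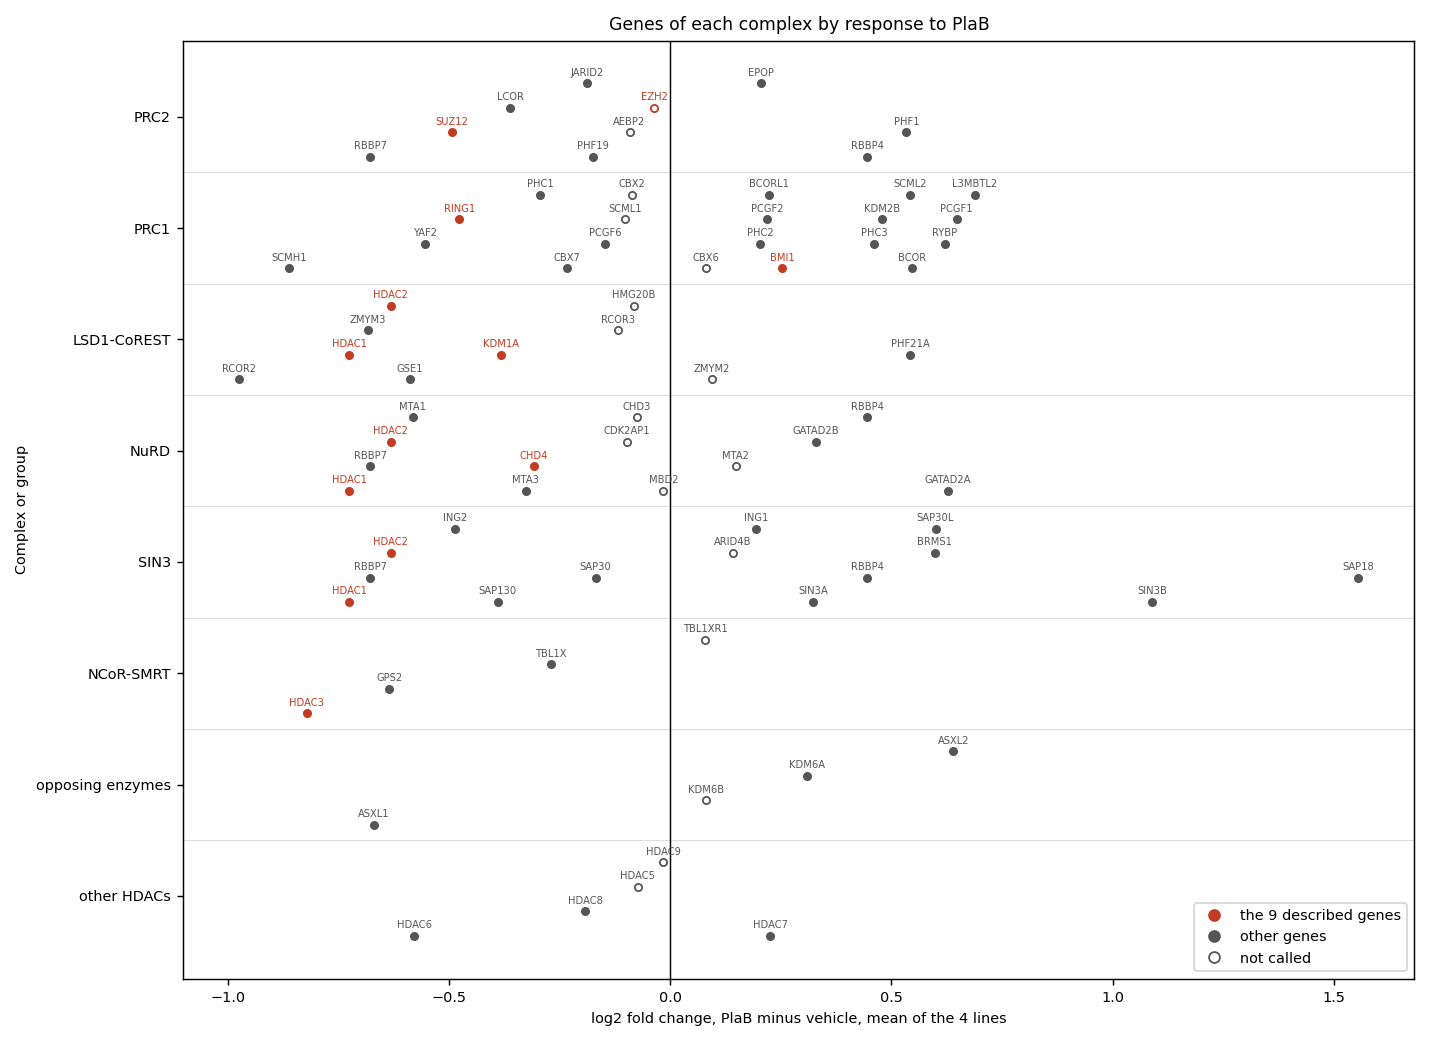
Log2 fold change in the mean of the 4 lines (x axis, PlaB minus vehicle) of every measured gene of each complex or group (y axis; height within a band has no meaning), with genes of several complexes drawn in each; open points were not called. Each of the bands with 5 or more genes holds genes on both sides of 0, SAP18 at 1.56 lies farthest right and RCOR2 at -0.97 farthest left, and centring arrays on their median lowers the number called higher to 16.

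Also measured were 5 genes reported as repressed by EWS-FLI1 through NuRD and KDM1A, or by EZH2, in Ewing sarcoma. Over the 4 lines 1 of these 5 rose and 3 fell, beside 32.3% and 37.9% of all measured genes. Their median was -0.19, beside -0.030 over all genes. Some levels were close to those of the EED probe, which failed the detection filter. EMP1 averaged 4.26 with PlaB and 4.32 with vehicle in SKNMC, and 4.24 and 4.20 in RDES. LOX averaged 4.25 with PlaB and 4.36 with vehicle in TC71, and 4.41 and 4.43 in TC32. GAP43 lay between 4.17 and 4.85 on PlaB arrays and between 4.24 and 5.05 on vehicle arrays. TGFBR2, a receptor of TGF-beta, rose at 0.28 (limma adjusted p = 0.000313), called in TC32 and RDES. A second TGFBR2 probe rose at 0.19 and was called in RDES but not in TC32 (0.22, limma adjusted p = 0.123). LOX, a lysyl oxidase, fell at -0.19 (0.027), and its call within a line was in SKNMC (-0.70). EMP1, an epithelial membrane protein gene, fell at -0.53 (1.11e-09) and was called in TC32 and TC71. GAP43, a growth cone protein gene, fell at -0.23 (0.00505), and NGFR, a neurotrophin receptor gene, stood at 0.085 and was not called, while in SKNMC it was called higher (0.54, limma adjusted p = 0.00283).

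The measured genes nearest in pattern to each of the 9 are given as a description. Likeness is the root mean square difference between the 8 group means, each probe centred on its own mean, in log2 units. CHD4 had the closest neighbour, PMEPA1 at 0.053. HDAC1 was nearest to NRSN2 at 0.092. RING1 was nearest to C22orf39, HDAC2 to UBE3D and HDAC3 to MND1, each at 0.11. KDM1A was nearest to DYRK4 at 0.12 and SUZ12 to TPR at 0.13. BMI1 and EZH2 had the most distant neighbours, YDJC at 0.15 and DBN1 at 0.18. For comparison, the median distance over all genes ran from 0.45 for CHD4 to 0.72 for EZH2.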

How the data were processed

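The authors deposited, per the file headers, a non-normalized table of probe intensity values on a linear scale (56.3 to 8894.51) with a detection p-value for each of the 24 arrays. A deposited series matrix of log2 values was used only for TC32, where 99.996% of probes matched within 0.03 log2; in the other lines at most 75.199% did. GenomeStudio, lumi and R 3.0.2 were used upstream, per the submitters' processing notes. Intensities were background-corrected from the detection p-values, given an offset of 16, quantile-normalized and put on the log2 scale (neqc, limma 3.58.1, R 4.3.3). Probes were kept if detected (p under 0.05) on all 3 arrays of at least 1 group, leaving 17557 probes of 10882 genes. A group-means model over the 24 arrays was moderated by eBayes (16 residual and 13.7 prior degrees of freedom), and two-sided p-values were Benjamini-Hochberg adjusted over all tested probes at 0.05. The fit was tested on simulated data. Symbols came from the supplied platform annotation: 30112 probes had 1 symbol, 8 several and 17203 none.

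The 10 genes, the gene lists and the tests were chosen with earlier results of these data known. Named list genes are the up to 4 per list with the largest mean change that were called the same way in at least 3 lines, and every measured gene reported as repressed. Alternatives varied background, offset, normalization, filter, probe choice, samples and the replicate block. No block was used, since the labels do not say what a replicate number shares. Same-numbered PlaB and vehicle arrays did not deviate together (0 of 12 pairs correlated over 0.1, range -0.04 to 0.05). Arrays give no depth.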

Additional observations from a re-analysis of the deposited data

Results flagged for a closer look

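For 7 probes the response to PlaB differed between lines in limma's moderated F-test, over all tested probes. EZH2 probe ILMN_2364529 had an adjusted p of 0.000496, with changes between -0.42 in RDES and 0.36 in SKNMC. HDAC1 followed at 0.000499, with changes between -1.26 in SKNMC and -0.42 in TC32. EZH2 probe ILMN_1652913 had 0.00528 (-1.02 in SKNMC to -0.26 in TC32) and CHD4 probe ILMN_1685551 had 0.00531 (-0.68 in SKNMC to -0.04 in TC32). EZH2 probe ILMN_1708105 had 0.00888 (-0.28 in RDES to 0.40 in SKNMC), RING1 0.0196 (-0.86 in SKNMC to -0.25 in RDES) and HDAC3 0.0211 (-1.11 in TC71 to -0.45 in TC32). The share of all tested probes with such a difference was 42.4%. With arrays centred on their median, RING1, HDAC3 and EZH2 probes ILMN_1652913 and ILMN_1708105 missed the threshold.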

How the results depend on the processing

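Settings are counted over the 9 measured genes by their brightest probe. With arrays centred on their median, the genes called higher became 0 in SKNMC (2 as reported) and 0 in the mean of the lines (1), those called lower became 8 in TC32 (5), those with a difference of response between lines became 2 (4; RING1 and HDAC3 lost the call), and list genes called higher became 16 (27). In the mean of the lines over all probes this setting called 2914 higher and 8345 lower, against 5432 and 6090 as reported, and centring on probes detected on all arrays called 8455 and 4528. Median centring also turned EZH2 probe ILMN_2364529 in TC32 (-0.33), ILMN_1708105 in TC32 (-0.20) and in the mean (-0.19, limma adjusted p = 0.0124), and BMI1 in TC32 (-0.18), TC71 (-0.023) and the mean (-0.019). Averaging the probes of a gene left 1 gene higher in SKNMC and turned EZH2 in SKNMC (-0.083) and TC32 (-0.0015). Detection p under 0.01 on all arrays left 21 list genes called lower (32), where fewer genes were tested. Fitting each line alone called 1 gene higher in RDES (0). The mean without SKNMC, chosen after seeing the data, turned ILMN_1708105 to -0.033. Apart from the changes due to construction, the cause was not tested.

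Leaving out 1 array gave 1 to 2 genes higher in SKNMC, 0 to 1 higher in TC32 (1 without TC32 vehicle replicate 3) and 3 to 5 lower in TC32 (3 without TC32 PlaB replicate 2). It turned EZH2 probe ILMN_2364529 in TC32 (range -0.0157 to 0.117; -0.0110 without TC32 vehicle replicate 1, -0.0157 without TC32 PlaB replicate 2) and ILMN_1708105 in TC71 (range -0.0865 to 0.0339; 0.000138 without TC71 vehicle replicate 2, 0.0339 without TC71 PlaB replicate 1). With the replicate number as a replicate block, which 6 of 12 arrays' own-number partners matched best, 7 genes were called lower and 1 higher in the mean of the lines, and ILMN_1708105 passed in RDES (-0.28, limma adjusted p = 0.0496). Quantile normalization within lines, cyclic loess, no background correction, an offset of 50 and no filter moved no count of the 9 genes by over 1.5 times. The signal over background limits EED and the second HDAC2 probe.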
